A study of Homo sapiens with 4 samples.

Results

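The genes described here are 42 neighbours on the long arm of human chromosome 11, bands 11q23 and 11q24, around *CBL*, read in PC9 cells and in osimertinib-resistant PC9OR cells. PC9 is an EGFR-mutant lung adenocarcinoma cell line, labelled WT and control. PC9OR was derived from PC9, is labelled as resistant to osimertinib, an inhibitor of the EGFR kinase, and is 1 resistant line. Both lines were kept in RPMI 1640 with 10% fetal bovine serum, each was sequenced as 2 biological replicates, and the labels give no drug in the culture of either line. With 1 line of each kind, resistance and any other difference between the lines cannot be told apart. The segment was selected from these same libraries by its low running median of the log2 fold change of PC9OR over PC9, so every difference of a member between the lines is given as a description, with no test. On the GRCh37 build the listed members span positions 118124131 to 124018428 of chromosome 11. Of the 42 members, 40 were among the 16813 genes listed in at least 1 library, and *TREH* and *C1QTNF5* had no entry in any library and were taken as 0. *TREH* encodes trehalase, and *C1QTNF5* a secreted protein of the C1q and TNF family.

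*CBL* encodes an E3 ubiquitin ligase that binds activated receptor tyrosine kinases, EGFR among them, and tags them for endocytosis and breakdown in lysosomes. *UBASH3B*, also in the segment, encodes a phosphatase that binds CBL and counters receptor down-regulation. The same stretch carries *KMT2A*, a histone H3 lysine methyltransferase that is rearranged in leukaemias, *H2AX*, the histone variant phosphorylated at DNA breaks, and *HSPA8*, the constitutive Hsp70 chaperone. Gains, losses and breaks of this region are known in several cancers.

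The libraries held between 23201307 and 32203998 expected counts. Genes were compared on CPM, counts scaled to library size and normalized between libraries (TMM), and levels of different genes on FPKM, which also divides by transcript length. A count of 3 was taken as the floor and equals 0.0936 to 0.128 CPM. The 2 PC9 libraries differed from each other with transcript length, with a rank correlation of -0.38 between length and the log2 ratio of replicate 2 to replicate 1 over 13148 genes, against -0.0065 for PC9OR. The difference between the lines also went with length (-0.34), so fold changes are given as fitted and, for most members described, also after a correction in each library for transcript length and base composition (the offsets). Of 10 epithelial and lung adenocarcinoma markers, *EPCAM* lay between 139 and 148 FPKM in the 4 libraries and *KRT8* between 669 and 1737 FPKM, with *KRT7*, *KRT18* and *KRT19* all above 452 FPKM. *CDH1* had 69.5 and 49.5 FPKM in PC9 and 22.0 and 20.1 FPKM in PC9OR, and *MUC1* 3.24 and 2.01 against 0.34 and 0.42 FPKM, while the lung markers *NKX2-1* and *NAPSA* were at or near 0 and *SFTPB* had no entry. Summed FPKM was 0.20 to 0.26 for 7 fibroblast markers and 0.04 to 0.09 for 6 tuft cell markers, of which *TRPM5*, *GFI1B*, *GNG13* and *CHAT* were at 0. It was 6.51 and 4.10 in PC9 and 0.88 in both PC9OR libraries for 5 endothelial markers, nearly all of it *CDH5*. Leukocyte markers (5) summed to 6.93 and 5.48 in PC9 against 2.86 and 2.58 in PC9OR, nearly all *CD68*, with *PTPRC* at or near 0. Basal and squamous markers (5) summed to 20.4 and 18.4 in PC9 against 3.53 and 3.62 in PC9OR, mostly *KRT5*.

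Promoter windows of 300 bases (250 before to 50 after the gene start) from RefSeq on GRCh38.p14 were matched for 31 of the 42 members. No window was matched for *CBL*, *OAF*, *THY1*, *TRIM29*, *MPZL2*, *CLMP*, *BCL9L*, *GRAMD1B*, *POU2F3*, *NECTIN1* and *VWA5A*. The matched windows had a median of 24 CpG dinucleotides and 62.3% GC, against 14 and 58.3% over all 27305 windows. The next 3 are shown because they belong to the most strongly lower well expressed member, *MCAM*, and to both chaperone genes, *HYOU1* and *HSPA8*, whose CPM values are given further on. All 3 lie on the minus strand and are written 5′ to 3′ in the direction of transcription. Capitals mark in *MCAM* the cyclic AMP response element TGACGTCA, in *HYOU1* both copies of the endoplasmic reticulum stress element II, ATTGGNCCACG on the other strand, and in *HSPA8* both matches to the heat shock element GAANNTTC.
MCAM, chr11:119317081-119317380: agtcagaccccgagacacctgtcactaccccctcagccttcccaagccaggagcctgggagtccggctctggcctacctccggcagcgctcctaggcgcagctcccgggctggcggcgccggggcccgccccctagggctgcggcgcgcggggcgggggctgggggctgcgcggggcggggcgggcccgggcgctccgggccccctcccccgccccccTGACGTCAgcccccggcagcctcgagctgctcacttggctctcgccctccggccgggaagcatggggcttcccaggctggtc
HYOU1, chr11:119057156-119057455: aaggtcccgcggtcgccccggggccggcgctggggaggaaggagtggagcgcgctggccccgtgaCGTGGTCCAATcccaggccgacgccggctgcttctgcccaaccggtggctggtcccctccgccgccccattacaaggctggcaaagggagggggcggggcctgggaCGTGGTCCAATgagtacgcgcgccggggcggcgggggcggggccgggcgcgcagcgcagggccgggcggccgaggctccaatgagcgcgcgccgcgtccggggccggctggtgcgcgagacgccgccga
HSPA8, chr11:123062087-123062386: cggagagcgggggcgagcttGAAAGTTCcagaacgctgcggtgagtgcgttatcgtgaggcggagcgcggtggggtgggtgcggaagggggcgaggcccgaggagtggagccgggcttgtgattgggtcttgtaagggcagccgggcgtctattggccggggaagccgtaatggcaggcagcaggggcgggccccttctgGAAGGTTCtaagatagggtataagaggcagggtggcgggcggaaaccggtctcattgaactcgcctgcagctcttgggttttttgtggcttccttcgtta
Searched on both strands, TGACGTCA was in 1.98% of all windows, GAANNTTC in 6.87% and ATTGGNCCACG in 15 windows of 27305 (0.0549%). Among the 31 member windows each of these was in 1 only, the window printed. The GC box GGGCGG was in 19 of 31 member windows (61.3%) and in 44.6% of all, the CCAAT box CCAAT in 10 of 31 (32.3%) and in 35.7%. The E box CACGTG was in 7 (*C2CD2L*, *HINFP*, *SC5D*, *SORL1*, *TBCEL*, *VPS11* and *ZNF202*), or 22.6% against 7.43%, and the TATA box TATAAA in *H2AX* alone, or 3.23% against 12%. Such matches describe the letters in the windows only.

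Across the segment, RNA was lower in PC9OR for most members. The filter on low counts kept 38 of the 42 members, of which 29 were lower in PC9OR and 9 higher, with a median log2 fold change of -0.83 against 0.01 over all 13148 genes tested. With the offsets it was -0.68 against -0.01, with 31 members lower and 7 higher. In 26 members both PC9OR libraries lay below both PC9 libraries, in 5 above, and in 7 the lines overlapped. Over all tested genes 38.2% lay below and 39.6% above. More than 2-fold lower were 14 members and more than 2-fold higher 2, where 14.6% and 8.84% of all tested genes were. An adjusted p under 0.05 (edgeR quasi-likelihood) went with 23 members lower and 3 higher, where 20.8% and 15.6% of all tested genes were called. Since the members were chosen from this contrast, nothing is read from these counts. In bulk RNA, fewer cells carrying a transcript and less of it per cell cannot be told apart.

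**Figure D1:**
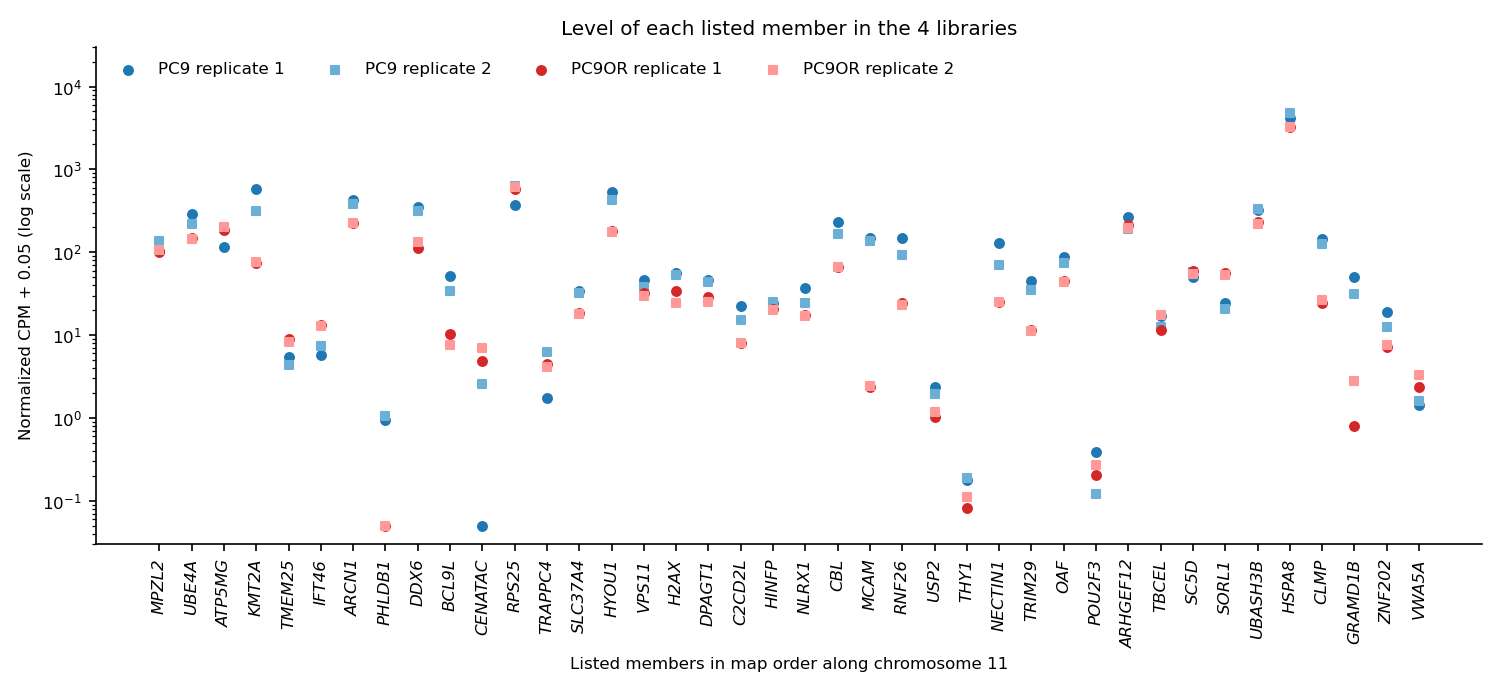
Normalized CPM plus 0.05 (log scale) of each listed member in each library, in map order, with circles for replicate 1, squares for replicate 2, blue for PC9 and red for PC9OR. MCAM, GRAMD1B and KMT2A show the widest gaps between the means of the lines among the well expressed members. SORL1 is higher in PC9OR, and HSPA8 has the highest CPM, which is not scaled by length, between 3274 and 4818.

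**Figure D2:**
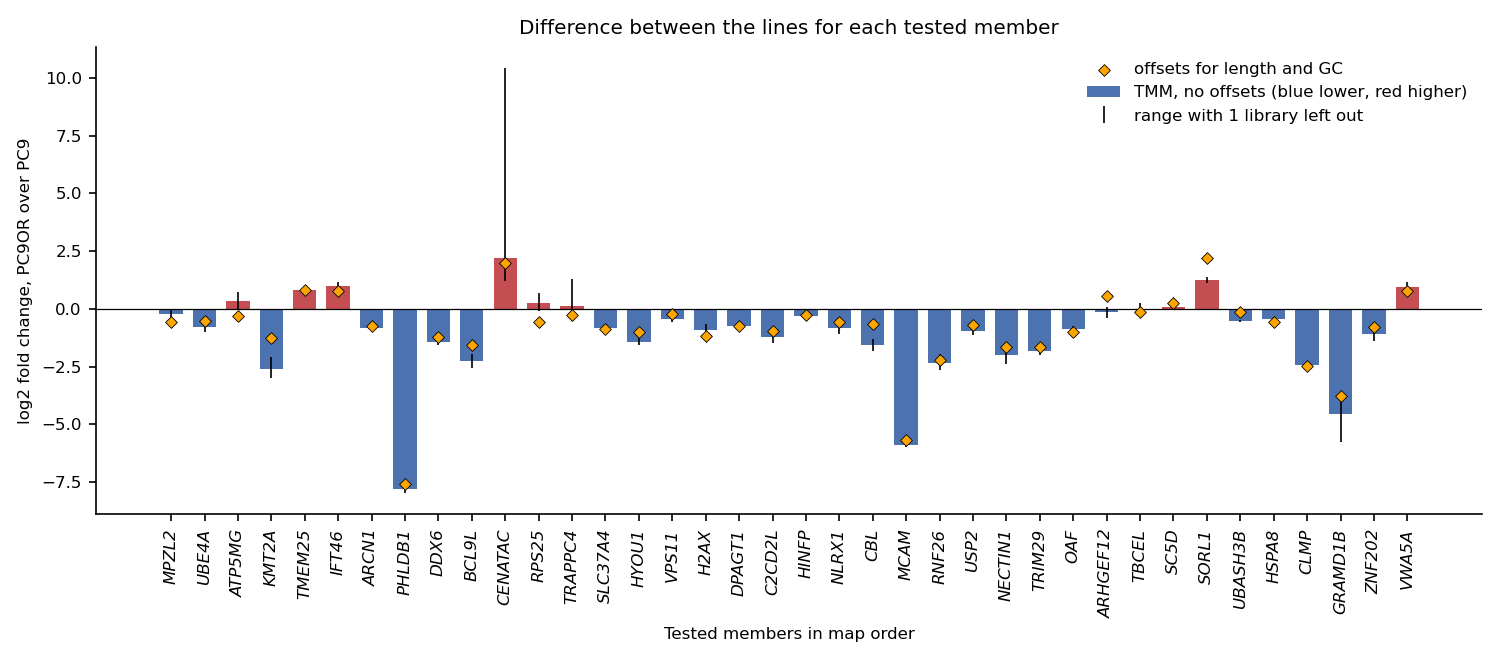
Log2 fold change of PC9OR over PC9 for each tested member in map order, as bars (TMM, no offsets), with diamonds for the fit with the offsets and lines for the range when 1 library is left out. Lower and higher members lie side by side, from -7.80 for PHLDB1, which had no count in PC9OR, to 2.18 for CENATAC, whose line reaches 10.42 because 1 PC9 library had no count.

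The summed CPM of the members was 8913 and 9083 in the PC9 libraries and 5887 and 5880 in the PC9OR libraries. *HSPA8* alone held 49.75% of the PC9 sum. Without it the sums were 4778 and 4265 in PC9 and 2597 and 2606 in PC9OR. The sums were not corrected for transcript length. Choosing the members from this contrast fixes a gap between the lines, so nothing is read from the sums.

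All 6 ubiquitin ligase and protease genes were lower in PC9OR with no overlap between the lines, as were 38.2% of all tested genes, with a median log2 fold change of -1.27 (-0.68 with the offsets). *CBL* (positions 119077008 to 119184636, plus strand) had 232 and 165 CPM in PC9 and 66.8 and 66.7 CPM in PC9OR. PC9 was thus 2.97-fold higher, and its replicates differed from each other far more than those of PC9OR did. On FPKM *CBL* read 14.7 and 10.2 in PC9 against 4.11 and 4.03 in PC9OR. The log2 fold change of *CBL* was -1.57 (SE 0.19) and -0.67 with the offsets, its mean transcript length being 11231 bases. The 3' part of *CBL* overlaps *MCAM* on the other strand by 5398 bases.

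*UBASH3B*, whose product binds CBL, had 324 and 330 CPM in PC9 and 233 and 216 CPM in PC9OR. The lines did not overlap, but the log2 difference was smaller than that of *CBL*, at -0.54 (SE 0.11) and -0.15 with the offsets. *RNF26*, a ligase of the endoplasmic reticulum membrane, had 147 and 91.9 CPM against 24.1 and 23.01 CPM. Its log2 fold change of -2.34 stayed near that value with the offsets (-2.21). *TRIM29*, a TRIM family protein of squamous epithelia, had 44.4 and 34.9 CPM against 11.3 and 11.1 CPM, a log2 fold change of -1.82 (-1.66 with the offsets). Both PC9OR values of *TRIM29* were well under both PC9 values. Of the 5 basal and squamous markers *KRT5*, *KRT6A* and *TP63* were lower in both PC9OR libraries too, while *KRT14* (0.34 and 0.13 FPKM in PC9, 0.33 and 0.39 FPKM in PC9OR) and *DSG3* (at most 0.03 FPKM) were not, and the part of epithelial type in the *TRIM29* values was not tested. The ubiquitin chain elongation factor *UBE4A* differed by -0.80 on the log2 scale (-0.55 with the offsets). The deubiquitinase *USP2* differed by -0.97 at a low level, between 0.968 and 2.30 CPM.

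Of the 8 chromatin, transcription and RNA genes, 7 were tested, with 6 lower and 1 higher and a median log2 fold change of -1.10 (-1.20 with the offsets). *KMT2A* had 581 and 312 CPM in PC9 and 73.1 and 75.5 CPM in PC9OR. The PC9 replicates of *KMT2A* stood far apart, and both were above both PC9OR libraries. The log2 fold change was -2.59 (SE 0.32) and -1.25 with the offsets, at a mean length of 16586 bases, the longest of any member. *BCL9L*, a coactivator of beta-catenin, had 51.9 and 33.9 CPM against 10.1 and 7.53 CPM. That is a log2 fold change of -2.28, or -1.59 with the offsets. *DDX6*, an RNA helicase of processing bodies, had 352 and 316 CPM against 114 and 133 CPM, with replicates close together in both lines (log2 fold change -1.44, SE 0.13, and -1.23 with the offsets).

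*H2AX* had 55.9 and 52.5 CPM in PC9 and 33.7 and 24.4 CPM in PC9OR. Here the PC9OR replicates were the more spread, and the log2 fold change was -0.90 (-1.20 with the offsets). *ZNF202*, a zinc finger repressor, had 19.0 and 12.4 CPM against 7.14 and 7.46 CPM, a log2 fold change of -1.10. *HINFP*, a histone gene transcription factor, differed least in the group, at -0.29. *CENATAC*, a minor spliceosome factor, was the exception: it had 0 and 2.53 CPM in PC9 and 4.80 and 6.94 CPM in PC9OR. Its log2 fold change of 2.18 rested on PC9 replicate 1, where the estimate was 0 counts against 72.9 in replicate 2, and was 1.21 without that library and 10.42 without PC9 replicate 2. *CENATAC* overlaps *RPS25* by 82 bases on the other strand. *POU2F3*, a tuft cell transcription factor, had between 2 and 8 counts in every library and was not tested.

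Of 9 adhesion and cell surface members 7 were tested, 5 lower and 2 higher, with a median log2 fold change of -0.88 (-1.01 with the offsets). *MCAM* (positions 119179239 to 119192231, minus strand), the melanoma cell adhesion molecule, had 147 and 136 CPM in PC9 and 2.34 and 2.41 CPM in PC9OR. Both lines were tight, and PC9 was 59.6-fold higher. The log2 fold change was -5.90 (SE 0.14), -5.67 with the offsets, and from -5.97 to -5.85 when 1 library was left out. With 75 and 77 counts, *MCAM* was still above the floor of 3 counts in PC9OR. *MCAM* also marks endothelium, and among the endothelial markers *CDH5* was also lower in PC9OR, at 6.08 and 4.10 FPKM against 0.86 and 0.80 FPKM. *PECAM1*, *VWF* and *TEK* were at most 0.39 FPKM in any library, *KDR* had no entry, and the part of cell type in the *MCAM* values was not tested. *THY1* marks fibroblasts. *THY1* had 1 to 4 counts in each library and was not tested.

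*CLMP*, an adhesion molecule of tight junctions, had 143 and 126 CPM in PC9 and 24.3 and 26.1 CPM in PC9OR. Its log2 fold change of -2.41 (SE 0.13) was -2.46 with the offsets, one of the steadiest in the segment. *NECTIN1*, a cell adhesion molecule of adherens junctions, had 128 and 70.7 CPM against 25.1 and 24.7 CPM. The log2 fold change was -1.996, or -1.659 with the offsets. The weighted length of its transcripts was 4578 and 4419 bases in PC9 and 3888 and 3493 bases in PC9OR, so the estimated use of its isoforms differed too. *SORL1*, a sorting receptor between Golgi and endosomes, went the other way, with 24.6 and 20.7 CPM in PC9 and 55.8 and 52.4 CPM in PC9OR. Both PC9OR values were more than 2-fold above both PC9 values, with a log2 fold change of 1.26 (SE 0.14) and 2.18 with the offsets, at a mean length of 10973 bases. *TMEM25*, an immunoglobulin superfamily membrane protein, was also higher (0.82), at 4.30 to 8.99 CPM. *OAF* differed by -0.88. *MPZL2*, an epithelial adhesion protein and the first member in map order, had 102 and 135 CPM against 100.1 and 106 CPM, so the lines overlapped.

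Of 8 chaperone and endoplasmic reticulum genes 7 were tested, 6 lower and 1 higher, with a median log2 fold change of -0.853 (-0.855 with the offsets). *GRAMD1B*, which moves cholesterol from the plasma membrane to the endoplasmic reticulum, had 50.3 and 31.2 CPM in PC9 and 0.739 and 2.76 CPM in PC9OR. Replicates differed within both lines, but the lines lay far apart, with a log2 fold change of -4.54 (SE 0.61) and -3.77 with the offsets. *HYOU1*, an Hsp70-family chaperone of the endoplasmic reticulum, had 530 and 429 CPM against 182 and 176 CPM. The log2 fold change was -1.42 (SE 0.14), or -1.01 with the offsets. *C2CD2L*, a lipid transfer protein, had 22.3 and 15.2 CPM against 7.99 and 8.03 CPM (log2 fold change -1.22, and -0.97 with the offsets). *C2CD2L* overlaps *DPAGT1*, the first enzyme of N-glycan assembly, by 6134 bases on the other strand, and *DPAGT1* differed by -0.73.

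*HSPA8* had 4135 and 4818 CPM in PC9 and 3290 and 3274 CPM in PC9OR. The lines did not overlap, and the log2 fold change was -0.45 (-0.56 with the offsets). On FPKM it was the most abundant member in PC9, with 1249 and 1424 against 725 and 1225 for *RPS25*, and second to *RPS25* in PC9OR, with 972 and 948 against 1176 and 1186. The glucose-6-phosphate transporter gene *SLC37A4* differed by -0.85. *SC5D*, an enzyme late in cholesterol synthesis, had values of the lines that overlapped, between 50.1 and 59.1 CPM.

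The remaining groups had medians nearer 0. The median log2 fold change was -0.435 for secretory and endosomal traffic (-0.253 with the offsets). It was -0.03 for cytoskeleton, cilia and signalling (0.554 with the offsets) and 0.258 for mitochondrion and ribosome (-0.558 with the offsets). In secretory and endosomal traffic, *ARCN1*, the delta subunit of the COPI coat, had a log2 fold change of -0.84 (SE 0.11) and *VPS11*, a core subunit of HOPS and CORVET, of -0.435 (-0.211 with the offsets), while *TRAPPC4*, a TRAPP subunit, had 1.69 and 6.19 CPM in PC9 on either side of 4.39 and 4.11 CPM in PC9OR. Among 5 cytoskeleton, cilia and signalling genes, *PHLDB1*, a microtubule anchoring protein, had 20.8 and 28.7 counts in PC9 and 0 in both PC9OR libraries, which is at least 10.05-fold lower against a floor of 3 counts per library. *IFT46*, of the intraflagellar transport complex that builds cilia, was higher, at 5.76 and 7.32 CPM in PC9 and 13.2 and 12.7 CPM in PC9OR. The values of *IFT46* did not overlap, and its log2 fold change was 0.98 (0.76 with the offsets). *VWA5A*, the last member in map order, had 1.37 and 1.56 CPM against 2.34 and 3.22 CPM, higher in both PC9OR libraries. *ARHGEF12*, an exchange factor for RhoA, overlapped between the lines, with -0.16 and 0.55 on the log2 scale without and with the offsets, and *TBCEL*, a tubulin chaperone cofactor, overlapped too.

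Among the 3 mitochondrial and ribosomal members, *RPS25* and *ATP5MG* have short transcripts, of 492 and 1338 bases on average, and did not separate the lines. *RPS25*, a protein of the small ribosomal subunit, had 373 and 629 CPM in PC9 and 586 and 613 CPM in PC9OR. *ATP5MG*, a membrane subunit of ATP synthase, had 117 and 194.5 CPM against 184 and 203.5 CPM. In both genes PC9 replicate 1 was low and PC9 replicate 2 was at the PC9OR level, and the direction turned with the offsets, from 0.26 to -0.59 for *RPS25* and from 0.32 to -0.30 for *ATP5MG*. *NLRX1*, a mitochondrial pattern recognition receptor, was lower, at -0.82 (-0.56 with the offsets).

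Direction was the same in the reported fit and in all 13 alternatives for 27 lower and 5 higher members, and 10 members were more than 2-fold lower in every one. The alternatives reuse the same 4 libraries from which the members were chosen. The share over all tested genes was not counted, so nothing is read from these counts. The 6 members whose direction changed were *ATP5MG*, *RPS25*, *TRAPPC4*, *ARHGEF12*, *TBCEL* and *SC5D*. Longer members differed more: the median log2 fold change was -1.16 for 22 members of at least 3000 bases and -0.25 for 16 shorter ones, and over all tested genes it was -0.23 and 0.23. With the offsets they were -0.77 and -0.57 for the members and 0.00 and -0.03 over all genes. The choice of members from this contrast fixes a gap from all genes, so nothing is read from it. The rank correlation of log2 fold change with length over the 38 members was -0.44, and -0.19 with the offsets. It describes members that share the same 4 libraries.

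In map order the first 12 tested members had a median of -0.50, the next 12 of -0.88 and the last 14 of -0.71. The first 12 held 7 lower and 5 higher members, the next 12 held 11 and 1, and the last 14 held 11 and 3. Among the higher ones, *TMEM25* and *IFT46* lay between *KMT2A* and *ARCN1*, and *SORL1* lay between *SC5D* and *UBASH3B*. The same interval held 7 other tested genes, with a median of -0.20. At the borders, *MPZL3*, just before the first member, differed by -0.47 and *MPZL2*, just inside, by -0.21. *VWA5A*, just inside the other end, differed by 0.92 and *TBRG1*, the next tested gene, by -0.77. Without the offsets both genes just outside were thus further down than those just inside, and with them *MPZL3* stood at -0.48 and *MPZL2* at -0.57.

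The low values did not stop at the segment. Of the 15 tested genes before it 11 were lower, with a median of -0.39, and of the 15 after it 13, with a median of -0.77. Over all tested genes 6463 of 13148 were lower. The median before the segment was -0.165 with the offsets. The median after it was -0.62 with the offsets but -0.36 with limma on log2(FPKM + 1) and -0.47 on log2(FPKM + 0.1). A running median near an edge takes in genes beyond it. Genes close to the segment may thus have entered its choice, among them some of those after it counted next. Nothing is read from the counts on either side. Over the 46 tested genes from the segment to the end of the long arm the median was -0.70. Of these, 21 were called lower and 0 higher by edgeR at an adjusted p under 0.05. Over all tested genes 20.8% were called lower and 15.6% higher. In 36 of the 46 both PC9OR libraries lay below both PC9 libraries, and in 1 above. Over all tested genes 38.2% lay below and 39.6% above. The short arm, at the far end of the chromosome, had a median of -0.47 over 234 genes (-0.49 with the offsets), and the long arm before the segment of -0.20 over 421. The 701 tested genes of chromosome 11 outside the members and the interval had a median of -0.32. Of the 701, 228 were called lower and 32 higher, beside the same 20.8% and 15.6% over all tested genes.

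**Figure D3:**
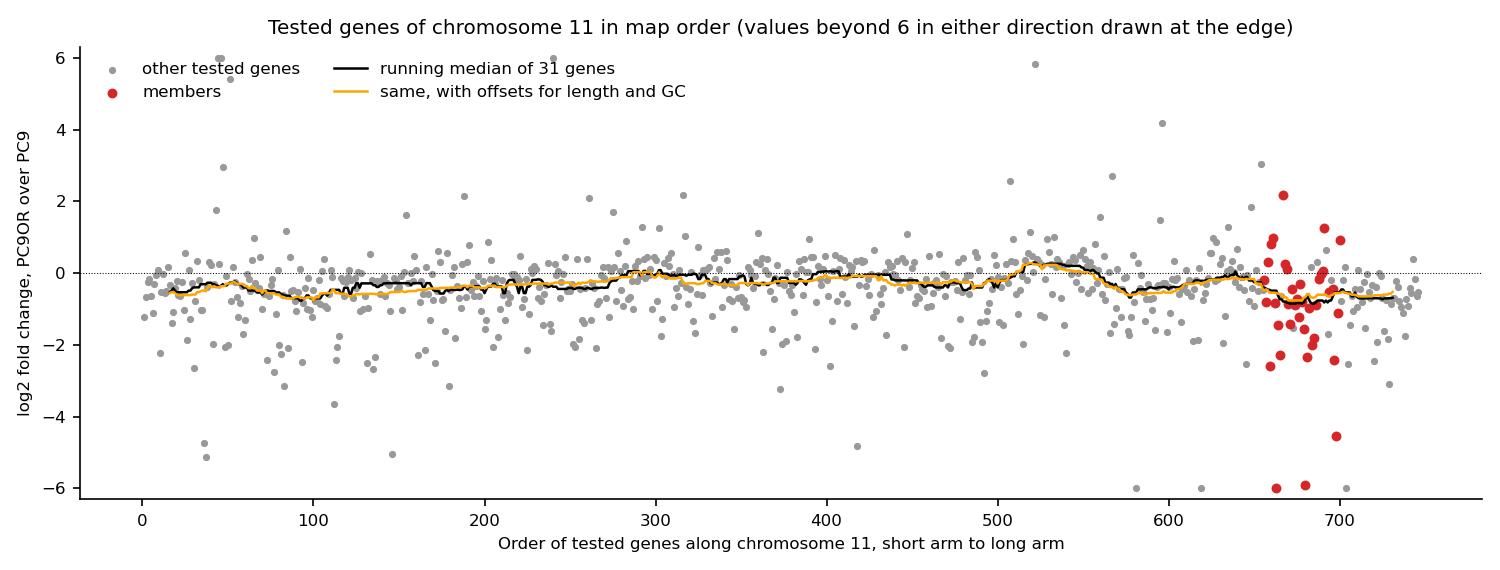
Log2 fold change of PC9OR over PC9 for the 746 tested genes of chromosome 11 in map order, with the members in red and the running median of 31 genes in black (orange after the offsets). The running median lies below 0 along most of the chromosome, and the members sit in a low stretch that goes on to the end of the long arm.

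Chromosome 11 had the lowest median of the 23 chromosomes compared, -0.34 over 746 tested genes. Of these 33.9% were called lower and 4.83% higher, against 20.8% and 15.6% of all tested genes. With the offsets chromosome 11 was again the lowest, at -0.37. Chromosome 20 came next without offsets (-0.25) and chromosome 7 with them (-0.19), and chromosome 13 had the highest median without offsets, 0.31. The member median of -0.83 lay below that of the chromosome. The choice of members from this contrast fixes such a gap, so nothing is read from it. DNA copy number was not measured in these libraries.

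**Figure D4:**
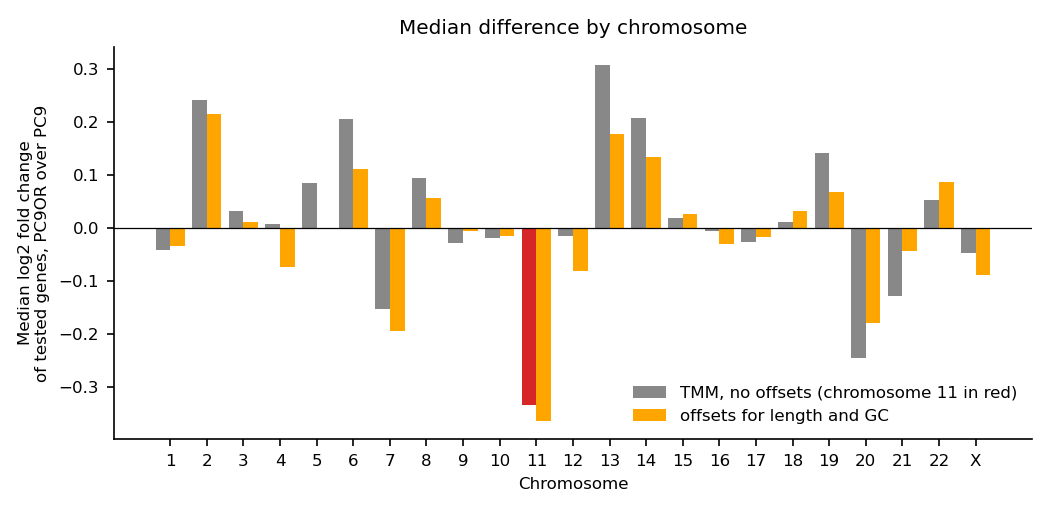
Median log2 fold change of PC9OR over PC9 over the tested genes of each chromosome, without offsets (grey, chromosome 11 in red) and with them (orange). Chromosome 11 is lowest in both, at -0.34 and -0.37.

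Genes elsewhere that act with CBL on EGFR were read from a list of 23, of which 21 were tested, and edgeR called 4 lower and 1 higher at an adjusted p under 0.05, against the same background of 20.8% and 15.6% of all tested genes. *EGFR* itself fell, from 1149 and 727 CPM in PC9 to 355 and 329 CPM in PC9OR, with a log2 fold change of -1.46 (SE 0.24, adjusted p 0.0132 by edgeR), and of -0.997 with the offsets (adjusted p over all alternatives from 5.26e-09 to 0.0249). Thus receptor and ligase RNA were both lower in PC9OR. *SH3KBP1*, an adaptor between CBL and the endocytic machinery, fell by 1.38 (edgeR adjusted p 0.0121), *GRB2*, which links EGFR to CBL, fell by 0.67 (adjusted p 0.0119), and *EPS15*, of clathrin-coated pits, fell by 0.64 (adjusted p 0.0147). With the offsets these were -1.14, -0.46 and -0.61. *STAMBP*, an endosomal deubiquitinase, rose by 0.59 (edgeR adjusted p 0.0151), or by 1.01 with the offsets. The calls of *GRB2*, *EPS15* and *STAMBP* did not hold in all alternatives, while those of *EGFR* and *SH3KBP1* did. The other CBL family ligases did not pass the test, with log2 fold changes of -0.46 for *CBLB* (edgeR adjusted p 0.11) and -0.20 for *CBLC* (adjusted p 0.39). On FPKM, *CBLB* stood at 3.99 and 2.97 in PC9 and 2.73 and 2.21 in PC9OR and *CBLC* at 11.5 and 9.75 against 10.1 and 7.92, so that *CBLC* was the highest of the 3 in PC9OR, while in PC9 *CBL* lay above *CBLC* by less than the spread between replicates. With the offsets 7 genes of the list were called lower and 2 higher, among them the same 4 and 1. Of all 13148 tested genes 3000 were called lower and 2509 higher in that fit.

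Each of 6 complexes has 1 subunit in the segment and the rest elsewhere. Of 70 partner subunits 69 were tested, with a median log2 fold change of 0.40 (0.24 with the offsets). With the offsets 10 were called lower and 26 higher, where 3000 and 2509 of all 13148 tested genes were. Without them edgeR called 6 lower and 27 higher, 6 and 21 of them in both fits, where 20.8% and 15.6% of all tested genes were called. In the IFT-B complex of *IFT46*, 11 of 16 partners rose and 0 fell (edgeR), beside that background, and the same 11 rose with the offsets, where *IFT25* was called lower. The largest were *IFT70A*, by 1.93 on the log2 scale (edgeR adjusted p 0.00794), *IFT70B*, by 1.36 (adjusted p 0.0167), and *IFT80*, by 1.23 (adjusted p 0.00686). *IFT46*, inside the segment, was thus higher beside partners that rose. In TRAPP, *TRAPPC6A* rose by 2.15 (edgeR adjusted p 0.00498) and *TRAPPC5* by 1.198 (adjusted p 0.0134), or by 1.56 and 0.63 with the offsets, while *TRAPPC1* fell by 0.97 (adjusted p 0.0365), or by 1.51. That is 3 of 13 higher and 1 lower, where 15.6% and 20.8% of all tested genes were called. With the offsets 6 of the 13 were called higher and 2 lower, where 2509 and 3000 of all 13148 tested genes were. The calls of *IFT70B* and *TRAPPC1* did not hold in all alternatives.

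Partners of *KMT2A* went both ways, with 3 of 10 called lower and 3 higher, or 3 and 2 with the offsets. Without the offsets 20.8% of all tested genes were called lower and 15.6% higher. With the offsets 3000 of all 13148 tested genes were called lower and 2509 higher. These shares stand beside the counts of each complex below as well. *HCFC1*, a scaffold of methyltransferase complexes, fell by 2.35 (edgeR adjusted p 0.0134; -1.51 with the offsets), and *ASH2L* and *MEN1* fell by 0.88 and 0.70. *DPY30*, *PSIP1* and *KAT8* rose by 1.01, 0.78 and 0.45, with 0.19, 0.48 and 0.28 with the offsets. Of 16 ATP synthase partners of *ATP5MG*, 8 were called higher and *ATP5F1D* lower (-0.95), and with the offsets 4 were called higher and 3 lower. These are short transcripts, and their median of 0.76 was 0.03 with the offsets. *ATP5PB* rose by 1.25 (edgeR adjusted p 0.00832), or by 0.85 with the offsets. *ATP5F1E* went from 0.88 to -0.33. Of 7 COPI partners of *ARCN1*, *COPB2* fell by 0.67 and *COPE* rose by 0.55, the latter to 0.15 with the offsets. Of 7 HOPS and CORVET partners of *VPS11* only *VPS41* passed the test without the offsets, higher by 0.47. With the offsets 3 of these 7 were called higher. Of the partners of *KMT2A*, *ATP5MG*, *ARCN1* and *VPS11* named above, only *HCFC1* and *ATP5PB* were called in all alternatives.

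**Figure D5:**
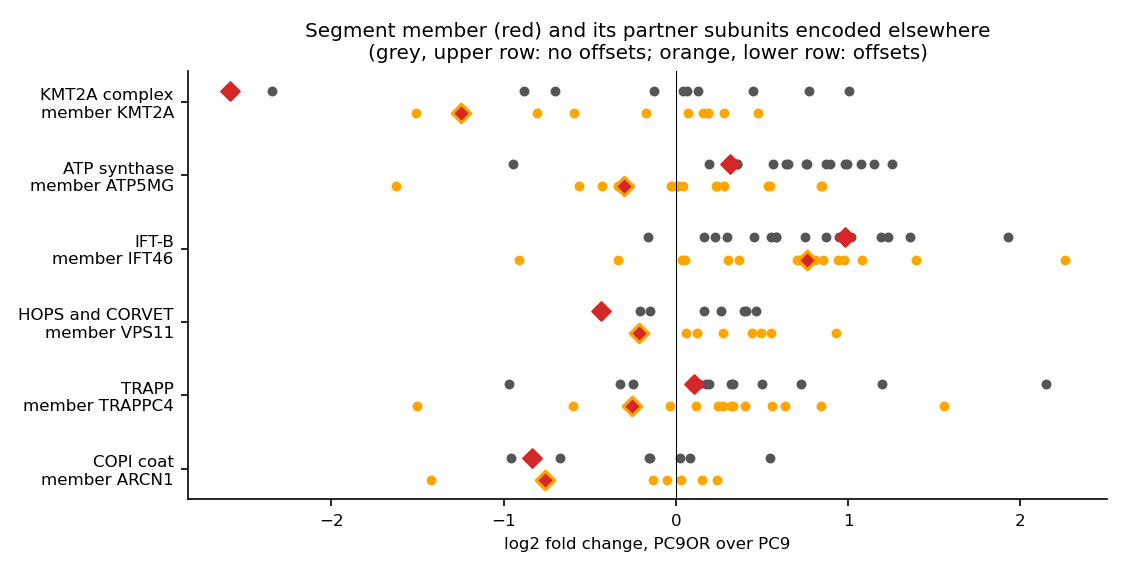
Log2 fold change of PC9OR over PC9 for 6 members (red diamonds) and for the tested partner subunits of the same complex encoded elsewhere (points), without offsets above and with them below. The IFT-B partners lie mostly above 0 in both fits, those of ATP synthase move to about 0 with the offsets, and KMT2A lies below all of its partners without offsets.

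Of 40 listed paralogs of members that lie outside the segment 36 were tested, with 12 called lower and 5 higher, against 20.8% and 15.6% of all tested genes. Their median length was 3621 bases. Of the 6544 tested genes of at least 3000 bases 1968 were called lower and 681 higher. The same 12 and 5 paralogs were called with the offsets, where 8 were higher in all. In that fit 3000 of all 13148 tested genes were called lower and 2509 higher. Among the paralogs of lower members, some fell. *KMT2B* fell from 50.3 and 22.3 CPM to 4.11 and 7.07 CPM (log2 fold change -2.70, edgeR adjusted p 0.0160, and -1.87 with the offsets), and *KMT2D* from 165 and 101 CPM to 28.5 and 29.5 CPM (-2.20, adjusted p 0.00736), the latter only by 0.63 with the offsets. *BCL9*, the paralog of *BCL9L*, fell by 1.64 (edgeR adjusted p 0.0238) and by 1.01 with the offsets, and *PHLDB2* by 1.03 (adjusted p 0.00749) and 0.72. *POU2F2* and *POU2F1* fell by 2.06 and 1.72 (edgeR adjusted p 0.0292 and 0.00511), or by 1.47 and 0.78 with the offsets, while their member *POU2F3* was too low to compare. The Hsp70 family split. *HSPA1A*, a stress-induced paralog of *HSPA8*, rose from 382 and 380.2 CPM to 1069 and 1065 CPM (1.49, edgeR adjusted p 0.00394), *HSPA1B* rose by 1.73 and *HSPA2* by 1.80. *HSPA1A* and *HSPA1B* are nearly identical, so the division of reads between them is uncertain. *HSPA5*, the endoplasmic reticulum Hsp70, fell by 0.98 (adjusted p 0.00913), in the same direction as *HYOU1*. *GRAMD1C* rose by 1.37 (edgeR adjusted p 0.0116), and *PHLDB3* rose by 0.72 (edgeR adjusted p 0.0411). The calls of *POU2F2*, *HSPA5* and *PHLDB3* did not hold in all alternatives.

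Members overlap in 6 pairs on opposite strands, among them *TMEM25* and *IFT46*, *IFT46* and *ARCN1*, and *TRAPPC4* and *SLC37A4*, besides those named above. The libraries were made with a stranded kit, and the strand setting of the counting was not given in the sources used here, so reads in the shared bases of these 11 genes cannot be divided between partners with certainty.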

How the data were processed

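RNA of PC9 and PC9OR cells, labelled as 2 biological replicates each, was sequenced after a TruSeq Stranded preparation. Reads had been filtered with SOAP 1.5.2, and Bowtie2 2.2.5, RSEM 1.2.12 and GRCh37 are named in the submitters' processing notes. For each gene the authors deposited an expected count, not normalized and not always whole, an FPKM value, scaled by library size and length, and the isoform-weighted transcript length. Columns of unmapped samples numbered 0. Entrez identifiers gave symbols for 99.66% of genes, and GENCODE on GRCh37 gave positions and GC content for 96.5%. The members and gene lists were chosen with earlier results of these data known, and the comparison of chromosomes and arms was added after the values were seen. All 42 members were described by role. Library values were given for *CBL*, members over 2-fold different, both end members, *KMT2A*, *H2AX*, *HSPA8*, *UBASH3B*, *RPS25* and *ATP5MG*. Outside the segment the nearest genes, *EGFR*, *CBLB*, *CBLC* and list genes with adjusted p under 0.05 (the 6 largest changes of a list where there were more) were named. Beyond that rule, *HSPA5*, *HSPA1A*, *BCL9*, *GRAMD1C*, *PHLDB2*, *PHLDB3* and further subunits were chosen after their values were seen. Other called paralogs, such as *UBE4B*, *SLC37A1* and *CXADR*, were left out.

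Expected counts were rounded and tested over all genes with edgeR 4.0.16 in R 4.3.3 (TMM, filterByExpr, quasi-likelihood test, Benjamini-Hochberg adjustment). Libraries held 23201307, 29062064, 31948974 and 32203998 counts, in the order PC9 1 and 2 and PC9OR 1 and 2, and a floor of 3 counts covers counting error only. Offsets came from smooth curves of each library on length and GC content (mgcv 1.9.3). Alternatives were DESeq2 1.42.0 (size factors and Wald test), limma 3.58.1 on log2 FPKM with pseudocounts of 1 and 0.1, other filters, a replicate block, and each library left out. The DEGseq test of the study was not run here. At its threshold (over 2-fold, adjusted p under 0.001) edgeR called 0 genes lower and 0 higher over 13148, DESeq2 1238 and 497, and at an unadjusted p under 0.05 edgeR had 1718 and 967 over 2-fold. On simulated counts for these genes and libraries, 177 of 200 changed genes were recovered with 13 false calls. The simulated libraries had no difference with transcript length, which the real ones had, so the false calls do not carry over to the real counts. Chi-square per gene between replicates was 68.6 in PC9 and 10.2 in PC9OR, so replicates differed by more than sampling noise. P-values measure only the spread between labelled replicates.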

Additional observations from a re-analysis of the deposited data

How the results depend on the processing

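With 1 library left out, the lone library being assumed to vary like the other line, genes called lower ranged from 1177 to 3929 and higher from 525 to 3932, members lower from 12 to 25 and higher from 1 to 7, EGFR down-regulation genes lower from 2 to 9 and higher from 0 to 2, partner subunits lower from 1 to 9 and higher from 7 to 41, and paralogs lower from 5 to 18 and higher from 4 to 10. Counts were lowest without a PC9OR library (members lower 13 without replicate 1 and 12 without replicate 2) and, except for paralogs higher (10 without PC9 replicate 1), highest without PC9 replicate 2. The member median ranged from -0.94 without PC9 replicate 2 to -0.73 without PC9 replicate 1, and was -0.68 with limma on log2(FPKM + 1), -0.68 with offsets and -0.68 with offsets and the block, against -0.83 as reported. With the offsets 7 EGFR down-regulation genes were lower and 2 higher (4 and 1 as reported), 10 partner subunits were lower and 8 paralogs higher. Over all 13148 tested genes the offsets gave 3000 lower and 2509 higher. With at least 10 counts in every library 2 EGFR down-regulation genes were higher. *ATP5F1E* turned from 0.88 to -0.33 with the offsets, also with the block (-0.33). The deviations of same-numbered libraries had a correlation of 0.052 over genes. With only 2 pairs this cannot show whether same-numbered libraries shared a preparation. The replicate block gave 7 EGFR down-regulation genes lower, and with the offsets 9 lower and 2 higher, 10 partner subunits lower and 9 paralogs higher, and it moved no other count of calls by over 1.5 times. The floor of 3 counts limits *PHLDB1*, *THY1* and *POU2F3*, and the cause of these changes was not tested.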
